A study of Mus musculus with 29 samples.

Results

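The effect of anti-PD1 given alone on the peritoneal tissue of mice with disseminated gastric cancer was examined 5 weeks after tumor implantation by comparing 5 RNA-seq libraries of anti-PD1-treated mice with 5 libraries of untreated mice. These 10 libraries, 1 per mouse, were all the libraries of the 2 groups and were taken by their labels from the 29 libraries of the series. All mice were female C57BL/6J mice that had received YTN16 cells, a mouse gastric cancer line, into the peritoneal cavity and were euthanized on day 35. The treated mice had received repeated intraperitoneal injections of an antibody to PD1, and the untreated mice had received PBS in its place. RNA was taken from peritoneum stripped from the body wall, with or without tumor nodules. A library therefore holds tumor cells, stroma, immune cells and body-wall muscle in proportions that differ between mice, and in such bulk tissue fewer cells of a type and less RNA per cell cannot be told apart. The label of every library says tumor tissue. The study's text describes a single anti-PD1 mouse as cured, and the labels do not say which.

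PD1, the product of Pdcd1, is an inhibitory receptor on activated T cells. Its ligands PD-L1 (Cd274) and PD-L2 (Pdcd1lg2) damp T cell receptor signalling when they bind it, and an antibody to PD1 blocks that contact. PD-L1 is itself induced by interferon gamma from T cells and NK cells through JAK kinases, together with guanylate-binding proteins, immunity-related GTPases, the T cell-attracting chemokines Cxcl9 and Cxcl10 and the antigen presentation machinery.

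The depth of the libraries was similar, with 27477153 to 29551427 counts in the anti-PD1 group and 26641402 to 31080946 in the untreated group. Their tissue make-up was not. Summed counts of 30 gastric epithelial markers, among them the keratins Krt8 and Krt19, the adhesion molecule Epcam and the mucin Muc13, were 0.450%, 0.527%, 0.603% and 0.446% of all counts in anti-PD1 libraries 1 to 4, and 0.0121% in anti-PD1 library 5. In untreated libraries 1 to 5 the same markers took 0.534%, 0.129%, 0.536%, 0.487% and 0.482%. Anti-PD1 library 5 thus lay 10.7 times below the lowest of the other 9, and the next lowest was untreated library 2. For 30 skeletal muscle markers the shares were 13.4%, 7.06%, 7.5%, 11.8% and 25.1% in anti-PD1 libraries 1 to 5. They were 8.02%, 24.2%, 9.75%, 15.8% and 7.21% in untreated libraries 1 to 5, so that the 2 libraries poorest in tumor epithelium were the richest in muscle. No Y-linked count was found in any of the 10 libraries.

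**Figure D1:**
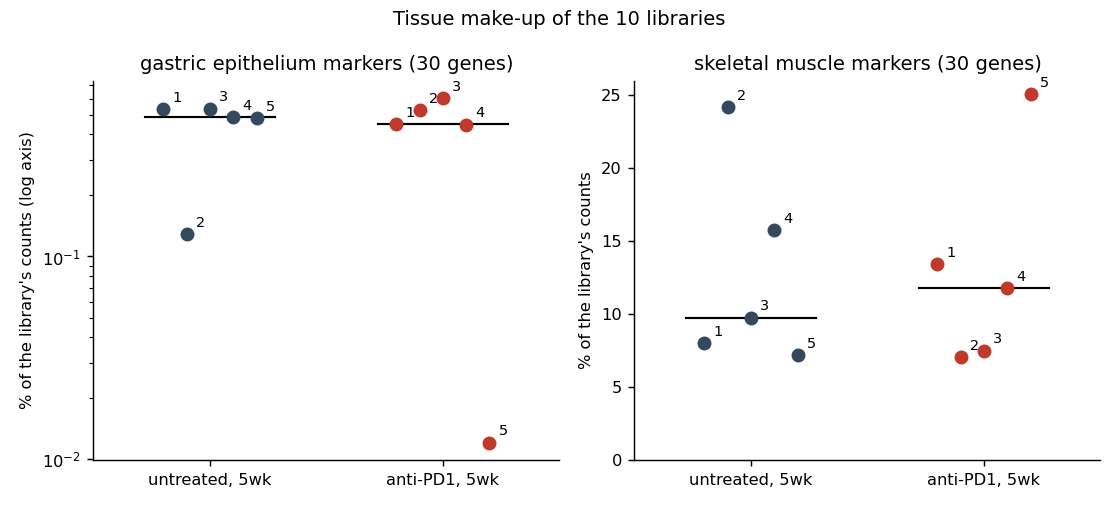
Share of each library's counts taken by 30 gastric epithelial markers (left, log axis) and 30 skeletal muscle markers (right), in percent. Each point is 1 library with its replicate number and bars are group medians; anti-PD1 library 5 (0.0121% epithelial, 25.1% muscle) and untreated library 2 (0.129%, 24.2%) stand apart.

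Anti-PD1 library 5 was the highest of the 10 libraries for 3472 genes (29%) and the lowest for 3942 (32.9%), of 11986 genes with a mean of at least 5 CPM (counts relative to library size after TMM scaling). Together these were 61.9% of the genes, against 3.14% to 38.0% in the other libraries. All 18 proliferation genes were lowest in it. Mki67, a marker of cycling cells, was 57.5, 64.5, 72.5 and 71.5 CPM in anti-PD1 libraries 1 to 4 and 4.90 CPM in library 5. The neutrophil chemoattractant Cxcl5 was at 0.774 CPM there, against 33.7 to 146 CPM in the other 9 libraries. Main comparisons below are given with this library (5 against 5) and without it (4 against 5). The scaling also differs for this library, whose TMM factor was 0.692 against 0.791 to 1.2 in the other 9, so that its CPM values are raised relative to a plain share of counts.

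No gene passed the test between anti-PD1 and untreated mice. With edgeR's quasi-likelihood test and Benjamini-Hochberg adjustment, 0 of 15640 genes (0%) had an adjusted p under 0.05 in the comparison of 5 against 5, where the smallest adjusted p was 1. Without anti-PD1 library 5, 0 of 15805 genes (0%) passed, with a smallest adjusted p of 0.995. At an unadjusted p under 0.05 there were 205 genes (1.31%), 99 with higher values after anti-PD1 (0.633%) and 106 with lower values (0.678%), in the comparison of 5 against 5. Without library 5 there were 314 (1.99%), 148 higher (0.936%) and 166 lower (1.05%). Fold changes above 0 made up 48.8% of all genes tested with library 5 and 44.1% without it. DESeq2 also called 0 genes in both comparisons, with 425 of 20216 and 495 of 20156 genes at an unadjusted p under 0.05. Limma voom with library weights called 0, with 1196 of 15640 and 1016 of 15805. If no gene differed, about 782 of 15640 and 790 of 15805 genes would fall under 0.05. The edgeR counts lay below these numbers and the voom counts above them, so the unadjusted counts depend on the method. For the median gene the 95% interval of the log2 fold change reached 0.55 to either side of its estimate with library 5 (1.47-fold) and 0.48 without it (1.39-fold). These intervals are not adjusted for the number of genes. Smaller changes could thus not be told from 0 for the typical gene even before adjustment, and after it larger changes did not pass either. Complete separation of the groups, with every anti-PD1 library above or below every untreated one, was seen for 14 genes upward (0.0895%) and 34 downward (0.217%) in the comparison of 5 against 5, and for 48 (0.304%) and 68 (0.43%) without library 5.

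Pdcd1, which encodes the receptor that the antibody binds, was not separated by treatment. The gene (chr1:94038305-94052553, GRCm38) was 4.24, 3.02, 5.10, 3.63 and 0.413 CPM in anti-PD1 libraries 1 to 5 and 3.69, 2.40, 3.93, 4.30 and 3.08 CPM in untreated libraries 1 to 5. Apart from library 5 the groups overlapped throughout. The log2 fold change was -0.08 (95% interval -1.12 to 0.97, adjusted p = 1, edgeR) with library 5 and 0.19 (-0.31 to 0.69, adjusted p = 0.995) without it. Of the other inhibitory receptors, Lag3 had a log2 fold change of -0.22 (SE 0.24), Havcr2, which encodes TIM-3, of -0.01 (SE 0.46), Tigit of 0.08 (SE 0.53) and Ctla4 of -0.31 (SE 0.56). Without library 5 these were -0.15, 0.22, 0.31 and -0.06. None of the 8 receptors of the list passed the test in either comparison, and 0 had an unadjusted p under 0.05. The list median was -0.14 with library 5 and 0.01 without it, beside medians of -0.01 and -0.03 over all genes tested.

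CD8 T cell and cytotoxicity genes were not separated by treatment. Cd8a, the CD8 alpha chain, was 2.19, 4.52, 5.85, 2.73 and 1.70 CPM after anti-PD1 (mean 3.40 ± 1.74, SD, n = 5) and 3.41, 1.99, 2.78, 4.73 and 3.32 CPM in untreated mice (3.25 ± 1.00, n = 5). Its highest and its lowest value were both in the anti-PD1 group. The log2 fold change was 0.07 (95% interval -0.72 to 0.86) with library 5 and 0.23 (-0.49 to 0.95) without it, so both intervals include 0. Granzyme B (Gzmb) was 0.854 ± 0.110 CPM after anti-PD1 and 0.918 ± 0.351 CPM in untreated mice, and perforin (Prf1) 0.618 ± 0.237 and 0.581 ± 0.409 CPM. Ifng itself was close to the limit of detection, at 0 to 11 reads per library, and was left out of the fit by the filter on low counts. The pan-T cell gene Cd3e differed by -0.02 (SE 0.20) on the log2 scale with library 5 and by 0.03 (SE 0.21) without it. Foxp3, which defines regulatory T cells, differed by -0.28 (SE 0.40), and Eomes and Tox, transcription factors of exhausted T cells among others, by -0.15 (SE 0.31) and -0.24 (SE 0.40). Without library 5 those 3 differences were -0.06, -0.01 and -0.01.

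**Figure D2:**
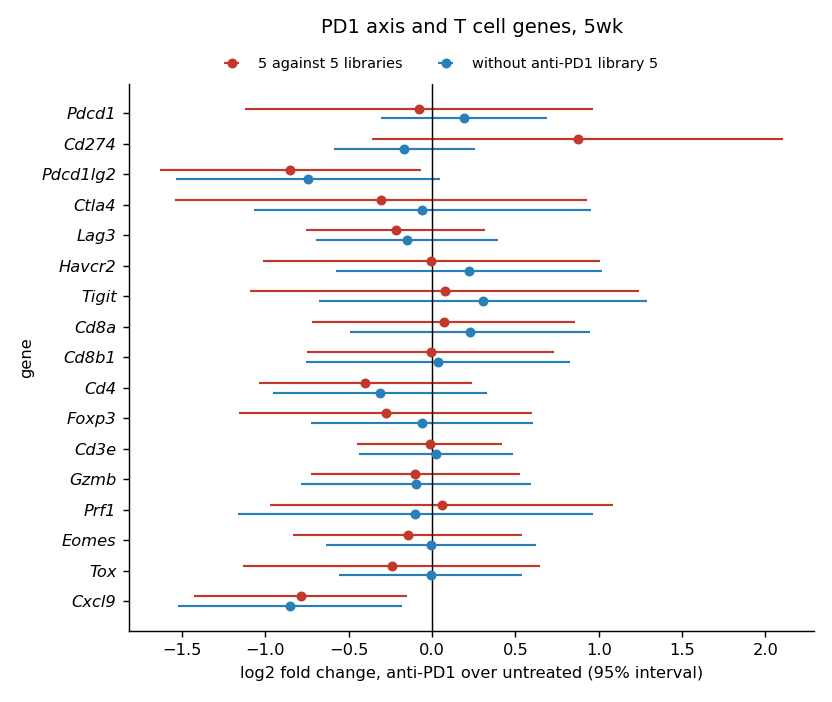
Log2 fold change of anti-PD1 over untreated with its 95% interval (x axis) for 17 genes of the PD1 axis and its T cell readout (y axis), from edgeR with all 10 libraries (red) and without anti-PD1 library 5 (blue). Intervals include 0 for every gene except Cxcl9 in both fits and Pdcd1lg2 with library 5, and the estimate for Cd274 moves from 0.87 to -0.17 when library 5 is left out.

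PD-L1 was the gene of the axis that library 5 changed most. Cd274 (chr19:29367455-29388095) was 6.98, 9.19, 11.0, 10.5 and 58.7 CPM in anti-PD1 libraries 1 to 5, against 12.8, 8.01, 12.0, 8.63 and 11.0 CPM in untreated libraries 1 to 5. Library 5 was 4.59 times the highest of the other 9, which did not separate by group, and 2.65 times without the TMM factor. It was also the highest of all 29 libraries of the series, the next being at 43.7 CPM. The log2 fold change was 0.87 (SE 0.56) with library 5 and -0.17 (SE 0.19) without it. The second ligand did not share this. Pdcd1lg2 was 0.450, 0.397, 0.789, 0.932 and 0.361 CPM after anti-PD1 and 1.6, 0.651, 0.967, 1.23 and 0.881 CPM in untreated mice, with a log2 fold change of -0.85 (SE 0.35, unadjusted p = 0.0355, adjusted p = 1 by edgeR) with library 5 and -0.74 (SE 0.36, unadjusted p = 0.0635, adjusted p = 0.995) without it.

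Some interferon-inducible GTPases stood out in library 5 together with Cd274. These genes are named here after their values were seen. To show the DNA upstream of them, the 250 bases before the start of 4 of these genes are printed 5′ to 3′ (RefSeq promoters, GRCm38.p6). Capitals mark matches, on either strand, to 2 motifs of interferon-activated factors: GAS (TTCNNNGAA, the interferon gamma-activated site) and ISRE (GAAA, any 2 bases and GAAA, an interferon-stimulated response element). The regions are chr19:29367188-29367437 for Cd274, chr11:58214727-58214976 for Irgm2, chr11:58199306-58199555 for Igtp and chr3:142530086-142530335 for Gbp7, all on the plus strand.
Cd274: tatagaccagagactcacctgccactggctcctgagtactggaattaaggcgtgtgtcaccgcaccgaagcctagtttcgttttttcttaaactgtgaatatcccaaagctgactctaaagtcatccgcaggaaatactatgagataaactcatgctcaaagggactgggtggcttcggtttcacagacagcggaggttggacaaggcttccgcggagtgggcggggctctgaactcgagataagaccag
Irgm2: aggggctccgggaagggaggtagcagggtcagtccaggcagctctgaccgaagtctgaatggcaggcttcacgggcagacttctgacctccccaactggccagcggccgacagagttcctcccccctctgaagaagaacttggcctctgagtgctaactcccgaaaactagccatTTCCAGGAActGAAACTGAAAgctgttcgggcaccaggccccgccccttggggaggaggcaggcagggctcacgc
Igtp: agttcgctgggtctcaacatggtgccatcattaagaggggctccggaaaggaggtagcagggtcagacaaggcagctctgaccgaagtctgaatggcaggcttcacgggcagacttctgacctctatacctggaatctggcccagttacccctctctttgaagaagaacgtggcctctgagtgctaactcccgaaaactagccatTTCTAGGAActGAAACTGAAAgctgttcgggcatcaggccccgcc
Gbp7: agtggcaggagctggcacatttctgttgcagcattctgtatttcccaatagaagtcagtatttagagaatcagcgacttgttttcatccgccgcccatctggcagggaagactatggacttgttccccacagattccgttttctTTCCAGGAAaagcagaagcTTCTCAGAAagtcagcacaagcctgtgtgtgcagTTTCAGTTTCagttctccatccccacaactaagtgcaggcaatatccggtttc

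Irgm2 held a GAS match 75 to 67 bases and an ISRE match 64 to 55 bases before the start. Igtp held the same pair of matches 45 to 37 and 34 to 25 bases before its start, and Gbp7 held 2 GAS and 1 ISRE matches. No match to either motif lay in the window of Cd274. Of 32851 promoters of this length in the table, 7.02% held a GAS match, 2.98% an ISRE match and 9.66% at least one of them. RefSeq promoters were found for 16 of 21 genes (the 20 genes of the interferon gamma response list and Cd274), and 10 of those 16 held at least one match. A match describes the letters of the window and not a bound site.

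Irgm2, an immunity-related GTPase, was 43.3, 37.1, 40.6, 46.4 and 193 CPM in anti-PD1 libraries 1 to 5 and 52.1, 46.1, 56.1, 35.8 and 46.9 CPM in untreated libraries 1 to 5. Igtp, of the same family, was 21.9, 22.8, 31.8, 25.3 and 141 CPM after anti-PD1 and 37.0, 22, 35.1, 41.0 and 37.3 CPM in untreated mice. In both genes library 5 stood far above every other library (3.44 and 3.43 times the next, or 2.01 and 2.19 times without the TMM factor), while anti-PD1 libraries 1 to 4 lay within or below the untreated range. The annotated spans of Igtp and Irgm2 overlap on chromosome 11, and whether counting used strand is not given in the sources used here, so reads in the shared span could have been assigned to either or to neither. Gbp4, a guanylate-binding protein, was at 130 CPM in library 5 against 15.5 to 32.2 CPM in the other 9, and Gbp7 at 108 against 21.4 to 38.4 CPM. Without the TMM factor, Gbp4, Iigp1 and Gbp7 were 2.37, 2.19 and 1.62 times the highest other library, and Gbp3 and Gbp5 1.39 times each. Gbp2 and Irgm1 were then below the highest other library, at 0.71 and 0.82 times its value. The Gbp genes are close paralogs, so their counts are uncertain where reads could be shared.

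Of the 18 interferon gamma response genes with a mean of at least 5 CPM, 8 (44.4%) were at more than 2 times the highest other library in library 5, against 190 of 11986 genes (1.59%). Without the TMM factor, an alternative chosen after seeing the data, these were 4 of 18 (22.2%) against 82 of 11986 (0.684%). As a plain share of counts, the summed list was 0.131% in library 5, inside the range of the other 9 (0.0695% to 0.143%). Not all genes of the response had this pattern. Cxcl9 was at 26.8 CPM and Cxcl10 at 9.65 CPM in library 5, both within the range of the other 9 libraries, as were the class I gene H2-K1 (848 CPM) and 7 of 8 class II presentation genes. Ifng was 0.129, 0.0611, 0.303, 0.193 and 0.465 CPM in anti-PD1 libraries 1 to 5, at most 11 reads. Irgm2 was likewise highest of all 29 libraries in library 5, whereas Gbp2 was exceeded by 6 of the other 28. In the 5 libraries of mice given anti-PD1 and anti-CTLA-4 together (dual ICI) on the same day, of which 2 had even less gastric epithelial RNA than library 5, Cd274 was 9.74 to 16.8 CPM and Irgm2 53.4 to 80.8 CPM, both below library 5, whereas Gbp2 reached 121 CPM there against 115 CPM in library 5. Atf3, a stress-induced transcription factor, was also high in library 5, at 165 CPM against 11.5 to 16.9 CPM, as were muscle genes such as Xirp1, at 1698 against 45 to 216 CPM. Library 5 also had the highest share of muscle markers among the 10, and the part of this in the interferon values was not tested.

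**Figure D3:**
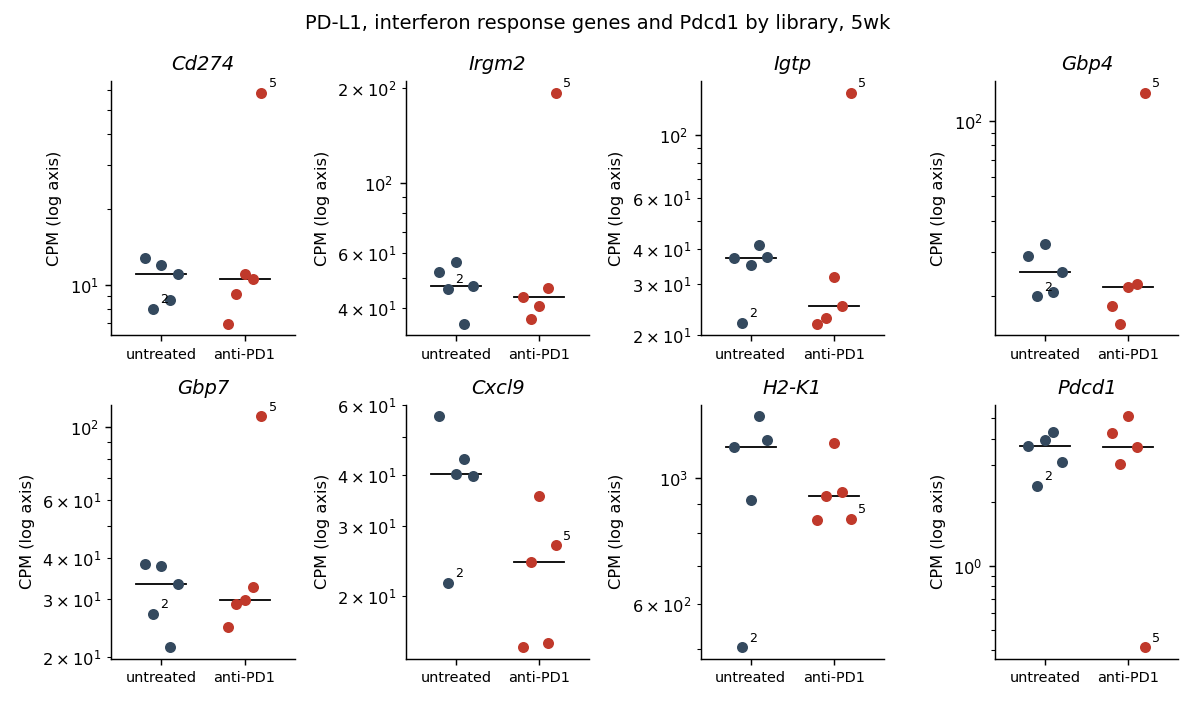
CPM (log axes) of Cd274, 5 interferon gamma response genes, the class I gene H2-K1 and Pdcd1 in each untreated and anti-PD1 library. Points are libraries in replicate order, bars are group medians, and untreated library 2 and anti-PD1 library 5 are numbered; library 5 is 58.7 CPM for Cd274 and 193 CPM for Irgm2 but within the range of the others for Cxcl9 and H2-K1.

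When the libraries poorest in tumor epithelium were left out, most interferon response genes had negative fold changes, and none passed the adjusted test. Cxcl9, the chemokine that draws CXCR3-bearing T cells, was 14.9, 24.3, 35.5, 15.3 and 26.8 CPM after anti-PD1 (mean 23.4 ± 8.6, n = 5) and 56.2, 21.6, 40.3, 44.0 and 39.9 CPM in untreated mice (40.4 ± 12.4, n = 5). All 5 anti-PD1 libraries lay below all untreated libraries other than library 2, which is itself poor in tumor epithelium. The log2 fold change of Cxcl9 was -0.79 (SE 0.29, unadjusted p = 0.0202, adjusted p = 1 by edgeR) with library 5 and -0.85 (SE 0.31, unadjusted p = 0.0179, adjusted p = 0.995) without it. Without both tumor-poor libraries, that is with anti-PD1 libraries 1 to 4 against untreated libraries 1, 3, 4 and 5, it was -1.0 (SE 0.26). In that comparison of 4 against 4, 0 of 15736 genes (0%) had an adjusted p under 0.05. That comparison was not one of the main comparisons and was chosen after the tissue values were seen. Untreated library 2 was the lowest untreated library for Cxcl9, so leaving it out raised the untreated mean.

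The interferon gamma response list had 12 genes with positive and 8 with negative fold changes in the comparison of 5 against 5 (median 0.07). Without library 5 the split was 4 to 16 (median -0.27), with 4 genes lower at an unadjusted p under 0.05, beside 1.05% of all genes. Without both tumor-poor libraries it was again 4 to 16 (median -0.34), and 11 of 20 genes were lower at an unadjusted p under 0.05, beside 2.64% of all genes tested there. Untreated library 2 had the lowest mean log2 CPM of this list in the untreated group (4.60 against 4.91 to 5.26). Leaving it out therefore raised the untreated mean. Examples in that last comparison were Gbp2 at -0.59 (SE 0.15), Gbp5 at -0.56 (SE 0.13), Igtp at -0.57 (SE 0.13) and Irf1, an interferon-induced transcription factor, at -0.34 (SE 0.12). Genes of 1 response vary together between mice, so their number is not a number of independent observations.

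The type I interferon response list had negative medians throughout. Its median was -0.19 with all 10 libraries (3 positive, 12 negative), -0.28 without library 5 (1 positive, 14 negative) and -0.42 without both tumor-poor libraries (0 positive, 15 negative), where 7 of 15 genes were lower at an unadjusted p under 0.05, beside 2.64% of all genes. The antiviral genes Oas2 and Oasl2 and the regulator Irf7 were among those 7, at -0.42 (SE 0.14), -0.39 (SE 0.11) and -0.45 (SE 0.17). For MHC class I presentation the medians were -0.14, -0.21 and -0.31, with 1, 0 and 0 of 13 genes positive. The immunoproteasome subunits Psmb8 and Psmb10 were at -0.54 (SE 0.21) and -0.54 (SE 0.21) in the last of these, and the peptide transporter Tap1 at -0.42 (SE 0.15). Class II presentation had medians of -0.10, -0.17 and -0.30, with no gene at an unadjusted p under 0.05. The medians over all genes tested were -0.01, -0.03 and -0.01. Untreated library 2 also had the lowest mean log2 CPM of the untreated group in each of these lists, so leaving it out raised the untreated mean.

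**Figure D4:**
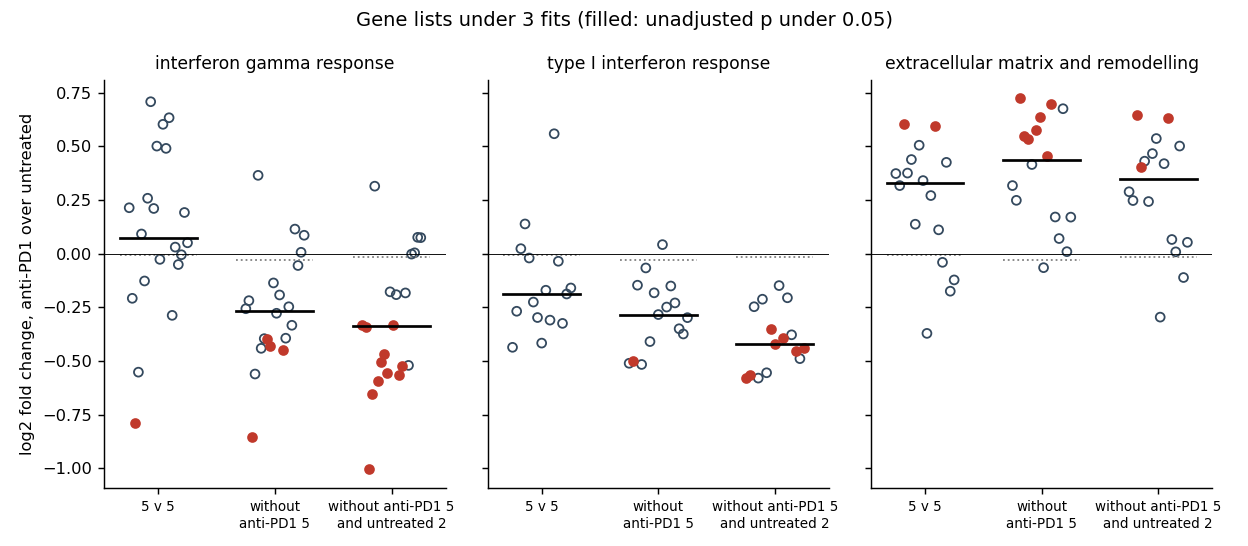
Log2 fold change of anti-PD1 over untreated (y axis) for the genes of 3 lists in 3 edgeR fits (x axis): all 10 libraries, without anti-PD1 library 5, and without anti-PD1 library 5 and untreated library 2. Each point is a gene, filled where its unadjusted p is under 0.05, with the list median as a solid bar and the median of all genes tested as a dotted bar; the interferon gamma median moves from 0.07 to -0.27 and -0.34, while the matrix median is 0.33, 0.44 and 0.35.

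Matrix genes mostly had positive fold changes, and none passed the adjusted test. In the extracellular matrix and remodelling list, 12 of 16 fold changes were positive with all 10 libraries (median 0.33, 2 genes higher at an unadjusted p under 0.05, beside 0.633% of all genes) and 15 of 16 without library 5 (median 0.44, 7 genes, beside 0.936%). With untreated library 2 also left out, 14 of 16 were positive (median 0.35) and 3 had an unadjusted p under 0.05, beside 1.41% of all genes in that direction. Without untreated library 2 alone, 11 were positive and 5 negative (median 0.23). There, 0 genes had an unadjusted p under 0.05, beside 1.25% of all genes upward and 1.49% downward. Untreated library 2 had the lowest mean log2 CPM of this list in the untreated group (6.78 against 7.24 to 7.75). Leaving it out therefore raised the untreated mean. Col5a1, a fibrillar collagen chain, was 531, 364, 398, 418 and 245 CPM after anti-PD1 and 391, 193, 226, 253 and 224 CPM in untreated mice. Untreated library 1 lay among anti-PD1 libraries 1 to 4, and the log2 fold change was 0.60 (SE 0.25) with library 5 and 0.72 (SE 0.22) without it. Loxl2, which cross-links collagen, had 0.59 and 0.70. Fibronectin (Fn1) was 1235, 1275, 1150, 1501 and 952 CPM after anti-PD1 and 1270, 572, 992, 670 and 804 CPM in untreated mice. Untreated library 1 again lay among the anti-PD1 libraries, and the log2 fold change was 0.51 (SE 0.25) with library 5 and 0.58 (SE 0.24) without it.

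The 12 fibroblast markers had a median of 0.36 with library 5 and 0.20 without it. Without library 5, Col3a1 (0.69), Postn, which encodes the matrix protein periostin (0.77), and Mfap5 (0.39) had an unadjusted p under 0.05. These were 3 of 12 genes, beside 0.936% of all genes higher at that limit, and 0 were lower. Dcn and Fbln1 were at -0.01 and 0.05. Without both tumor-poor libraries the median was 0.24, and 2 of 12 genes were higher at that limit, beside 1.41%. Mfap5 was then at 0.35 (unadjusted p = 0.0635 by edgeR). The summed share of the fibroblast markers was 1.21% to 1.49% of counts in anti-PD1 libraries 1 to 4, 0.594% in library 5 and 0.530% to 1.37% in the untreated libraries. Untreated library 2, the lowest in this share, was also low for tumor epithelium.

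By mean log2 CPM, the gastric epithelium and proliferation lists did not separate the groups once library 5 was set aside. The 27 gastric epithelial genes tested had a median of -0.18 with library 5 and 0.04 without it, and the 18 proliferation genes -0.04 and 0.21. Without library 5 all 18 proliferation genes were positive, beside 44.1% of all genes, with 0 at an unadjusted p under 0.05. Without both tumor-poor libraries 14 were positive and 4 negative (median 0.06). Untreated library 2 had the lowest mean log2 CPM of proliferation genes in the untreated group (3.68 against 4.25 to 5.09). Among the epithelial genes, the values of Tff2 and Muc1 are given because they had the smallest p of the list without both tumor-poor libraries. Tff2, a trefoil peptide of gastric mucus, was 22.2, 10.7, 20.02, 17.7 and 0.155 CPM after anti-PD1 and 31.1, 7.60, 80.9, 35.7 and 31.9 CPM in untreated mice. Anti-PD1 libraries 1 to 4 thus lay below every untreated library but library 2, as they did for the membrane mucin Muc1, at 78.9, 70.0, 61.3 and 59.3 CPM against 90.9, 30.6, 118, 90.4 and 130 CPM. Untreated library 2 was the lowest untreated library for both genes, so leaving it out raised the untreated mean. Without both tumor-poor libraries the log2 fold changes were -1.35 (SE 0.34) for Tff2 and -0.67 (SE 0.16) for Muc1, against -0.26 (SE 0.13) for Muc13. In that comparison the list median was -0.12 (9 positive, 18 negative). Of the 27 genes, 6 were lower at an unadjusted p under 0.05, beside 2.64% of all genes, and 0 higher, beside 1.41%, and none of them passed the adjusted test. The 13 squamous epithelial genes tested had medians of -0.38 and -0.22 with and without library 5. Without library 5, Sprr1a (1.26) was higher and Trp63 (-0.53) lower in every anti-PD1 library than in any untreated one. Such separation held for 0.304% of all genes upward and 0.43% downward. The margins were 19.2 against 18.2 CPM and 14.5 against 14.6 CPM, and library 5 was at 0 and 22.4 CPM. At an unadjusted p under 0.05, 1 gene was higher (0.936% of all genes) and 2 lower (1.05%), the second being Krt17 (-1.26). Without both tumor-poor libraries the squamous median was -0.47. There, 4 genes were lower at an unadjusted p under 0.05, beside 2.64% of all genes, and 1 higher, beside 1.41%.

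The skeletal muscle list changed sign with the libraries included. Its 30 genes had a median of 0.20 with all libraries (20 positive, 10 negative), -0.65 without library 5 (0 positive, 30 negative), 0.69 without untreated library 2 (29 positive, 1 negative, beside 1.25% and 1.49% of all genes at an unadjusted p under 0.05 upward and downward there) and -0.09 without both (10 positive, 20 negative), with no gene at an unadjusted p under 0.05 in any of the 4. Myh2, the myosin of fast oxidative fibres, was at 6228 CPM in library 5 against 230 to 1133 CPM in the other 9. In the 5 dual ICI libraries it was 238 to 6331 CPM (median 5749).

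No gene of the immune cell marker lists passed the adjusted test. T cell markers had a median of -0.20 with library 5 and -0.19 without it (11 genes), regulatory T cell markers -0.20 and -0.20 (8 genes), NK cell markers -0.06 (4 genes) and -0.18 (6 genes) and B cell markers -0.38 (6 genes) and -0.52 (7 genes). Without library 5, 1 NK cell gene was lower at an unadjusted p under 0.05 (1.05% of all genes) and 0 higher. In 1 of the 6, every anti-PD1 library but library 5 lay below every untreated one (0.43% of all genes). All B cell genes tested had negative fold changes in both comparisons, with 0 at an unadjusted p under 0.05. Over all genes, 48.8% and 44.1% were positive. Without both tumor-poor libraries the B cell median was -0.71 (0 positive, 7 negative). For CD8 T cells the 2 genes had medians of 0.03 and 0.13, and cytotoxic effectors -0.10 in both. Neutrophil markers were at 0.00 and 0.20 (8 genes), dendritic cell markers at 0.03 and -0.10 (9 genes), mast cell markers at -0.09 and 0.00 (8 genes) and plasma cell markers at -0.11 and -0.03 (5 genes). Of the 12 macrophage markers, with medians of 0.03 and 0.10, Cd163, a scavenger receptor of tissue macrophages, had an unadjusted p under 0.05. It was 56.8, 136, 104, 90.5 and 90.8 CPM after anti-PD1 and 86.1, 48.9, 55.5, 56.7 and 65.1 CPM in untreated mice. Its log2 fold change was 0.61 (unadjusted p = 0.0221, adjusted p = 1 by edgeR) with library 5 and 0.62 without it. Anti-PD1 library 1 fell inside the untreated range and the other 4 lay above it. Klrg1, a receptor of effector T and NK cells, was the one cytotoxic effector gene at an unadjusted p under 0.05, at -0.75 and -0.68.

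None of the genes in the other lists passed either. With and without library 5 their medians were -0.05 and -0.13 for checkpoint ligands, 0.03 and 0.02 for costimulation, 0.02 and -0.01 for T cell transcription factors, 0.04 and 0.05 for IL6, JAK and STAT3 genes, -0.22 and 0.03 for inflammatory cytokines and chemokines, 0.09 and 0.04 for TGF beta and 0.20 and 0.06 for angiogenesis and hypoxia. Among tissue markers they were 0.27 and 0.01 for adipocytes, 0.25 and 0.34 for mesothelium, -0.02 and -0.16 for endothelium, -0.02 and -0.27 for smooth muscle, -0.33 and -0.09 for liver and -0.08 and -0.02 for eosinophils. No gene of the exocrine pancreas or Y-linked lists passed the filter on low counts. With library 5, 1 mesothelial gene was higher at an unadjusted p under 0.05 (0.633% of all genes). Pdcd1lg2 was the 1 checkpoint ligand lower at that limit (0.678%). Without library 5, 2 of 10 angiogenesis and hypoxia genes were higher at that limit (0.936%). Of 17 inflammatory cytokine and chemokine genes, 1 was lower (1.05%). Fold changes of all 7 mesothelial genes were then positive, beside 44.1% of all genes, against 6 of 7 with library 5. Il6ra, the IL6 receptor, had an unadjusted p of 0.037 without library 5, and this came from 1 library: it was 83.0 CPM in anti-PD1 library 2 against 19.4 to 31.6 CPM in the other 9. In none of the 37 lists did the score, the mean log2 CPM of its genes in a library, separate the groups.

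Genes with the smallest unadjusted p were taken, 6 per direction, among those with a mean of at least 1 CPM in a group, predicted genes left out. On the higher side they differed in level by less than 2-fold with all 10 libraries. Genes outside this choice went lower, to an unadjusted p of 0.000186 with library 5 and 0.000544 without it (edgeR). Nox4 (chr7:87246096-87398710), a NADPH oxidase of fibroblasts and other mesenchymal cells, was 14.5, 17.1, 13.8, 11.9 and 14.8 CPM after anti-PD1 and 9.44, 9.43, 8.91, 10.9 and 11.7 CPM in untreated mice. It was the one gene among the 6 with the smallest p on the higher side whose groups did not overlap with all 10 libraries, by a margin of 11.9 against 11.7 CPM, and its log2 fold change was 0.51 (SE 0.14, unadjusted p = 0.00432, adjusted p = 1 by edgeR). The others were Thbs4 (0.75, SE 0.24), Col6a3 (0.71, SE 0.23), Fndc1 (0.75, SE 0.24), Dapk1 (0.40, SE 0.13) and Tiam2 (0.82, SE 0.27), and without library 5 the 6 fold changes were 0.50, 0.81, 0.62, 0.51, 0.34 and 0.55 in the same order. Of these genes, Thbs4, a matrix thrombospondin, and Col6a3, a collagen VI chain, belong to the extracellular matrix. Thbs4 was 476, 390, 381, 390 and 315 CPM after anti-PD1 and 361, 205, 182, 258 and 153 CPM in untreated mice, so that only untreated library 1 and anti-PD1 library 5 crossed.

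Without library 5 the 6 genes were Hmcn1 (0.83, SE 0.19), Mmrn1 (0.62, SE 0.14), Lyve1 (0.60, SE 0.15), Pparg (0.44, SE 0.11), Tph1 (1.15, SE 0.28) and Serpinb9b (1.72, SE 0.43). Lyve1, the hyaluronan receptor of lymphatic endothelium and some macrophages, was 45.1, 61.3, 48.3, 53.1 and 29.0 CPM after anti-PD1 and 40.5, 28.3, 39.3, 31.6 and 30.4 CPM in untreated mice. Mmrn1, also found in lymphatic endothelium, was 25.0, 28.6, 23.2, 23.6 and 10.4 CPM against 19.3, 12.4, 18.1, 16.7 and 14.9 CPM. In both genes anti-PD1 libraries 1 to 4 lay above all untreated libraries and library 5 lay near or below the lowest of them. The unadjusted p of these 6 genes ran from 0.00113 to 0.00211 and the adjusted p was 0.995 for each.

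On the lower side, Slitrk6, a transmembrane protein known from neural and sensory tissue, was 0.482, 0.825, 0.971, 0.643 and 0.671 CPM after anti-PD1 and 1.49, 0.691, 2.43, 2.03 and 3.08 CPM in untreated mice. Its log2 fold change was -1.43 (SE 0.38, unadjusted p = 0.00317, adjusted p = 1 by edgeR) with library 5 and -1.42 (SE 0.41) without it. Its counts were 13 to 105 per library, and untreated library 2 fell among the anti-PD1 libraries. Ccl25, a chemokine for CCR9-bearing lymphocytes, was 5.50, 4.18, 4.85, 6.01 and 3.92 CPM against 6.64, 5.73, 7.24, 10.7 and 9.54 CPM in the untreated libraries (log2 fold change -0.70, SE 0.21, and -0.65, SE 0.22, without library 5). Cfap43, Ttc25 and Nme5 are genes of motile cilia, at -0.72 (SE 0.23), -1.05 (SE 0.33) and -0.86 (SE 0.27), with levels of at most 2.67, 1.61 and 1.75 CPM. Only Cfap43 had groups without overlap in the comparison of 5 against 5. Pglyrp2, a peptidoglycan amidase, was the sixth, at -1.20 (SE 0.38). Without library 5, Slitrk6 and Nme5 were again among the 6, with Shisa3 (-0.80, SE 0.22), Morn2 (-0.93, SE 0.26), Serpina1c (-3.92, SE 1.13) and Hoxc10 (-2.14, SE 0.63). The estimate for Serpina1c, a gene of the liver, rests largely on untreated library 4, at 5.65 CPM against 0.0303 to 1.41 CPM in the other 9. Hoxc10, a homeobox gene of posterior body regions, was 0.868, 1.5, 5.22, 4.40 and 44.6 CPM after anti-PD1 and 5.32, 22.3, 13.8, 4.42 and 19.3 CPM in untreated mice, and its log2 fold change was -0.22 (SE 0.96) with library 5.

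**Figure D5:**
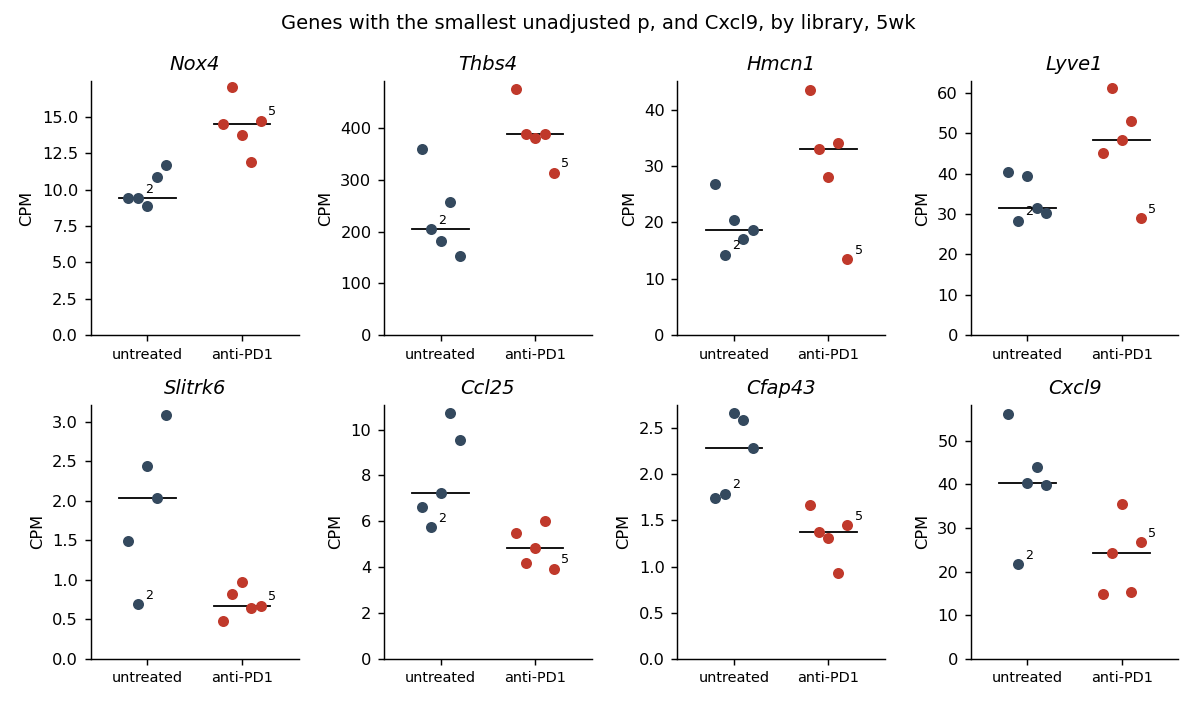
CPM (linear axes from 0) of 7 of the genes with the smallest unadjusted p and of Cxcl9 in each untreated and anti-PD1 library. Points are libraries in replicate order, bars are group medians, and untreated library 2 and anti-PD1 library 5 are numbered; Nox4 and Cfap43 are the 2 genes shown whose groups do not overlap with all 10 libraries.

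The study's volcano plot compares dual ICI with untreated mice, and the study's methods name DESeq2. It marks genes by a p limit of 0.05 and a difference of more than 2-fold, and does not say whether p was adjusted. Here its threshold was read as an unadjusted p and applied to the edgeR fits of anti-PD1 alone. It was met by 57 genes (0.364%) with all 10 libraries, of which 19 had higher (0.121%) and 38 lower values (0.243%) after anti-PD1. Without library 5 there were 86 (0.544%), 29 higher (0.183%) and 57 lower (0.361%). The count was 45 to 156 when any 1 of the 10 libraries was left out, with the highest value when untreated library 2 was left out.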

How the data were processed

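RNA-seq was measured in 1 library per mouse, and 10 of 29 libraries were analysed here. The authors deposited raw counts per gene symbol (24421 genes) from paired-end reads. The labels name STAR 2.7.0f, featureCounts 1.6.4 and mm10, while the study's supplementary methods name STAR and HTSeq. Strand setting and annotation are not given in the sources used here. The deposited counts were fitted with edgeR 4.0.16 in R 4.3.3 (TMM, filterByExpr, glmQLFit, glmQLFTest, two-sided, Benjamini-Hochberg). The fit was also run on simulated counts with known fold changes. Those counts had the same dispersion for every gene and no outlier library, so that run does not cover the spread of these data. Intervals are 95% and use the standard error and degrees of freedom implied by the F test. CPM values use TMM factors over 29 libraries, and list scores are mean log2 CPM with a prior count of 2. Gene positions are from GENCODE (GRCm38), by symbol.

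The members and the 37 gene lists were chosen with earlier results of these data known, so lists are described and not tested. Genes named are those with an adjusted p under 0.05, the 6 per direction with the smallest unadjusted p at a mean of 1 CPM or more in a group (predicted genes left out), 18 genes of the PD1 axis and up to 3 of the most abundant genes per list. Others were named after their values were seen, and 1 gene is not reported here. Alternatives were DESeq2 1.42.0, voom with library weights (limma 3.58.1), RLE and upper-quartile scaling, 2 other filters, muscle genes left out, tissue scores as covariates, a fit of all libraries, a replicate block and leaving out each library. The fits without untreated library 2 were chosen after the tissue values were seen. Depth was 26641402 to 31080946 counts per library. Each library is a separate mouse, so the spread holds biological and handling differences together.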

Additional observations from a re-analysis of the deposited data

Results flagged for a closer look

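In each group of 5 libraries, the gap between the highest or lowest library and its nearest neighbour was divided by the range of the group, for the 37 list scores and 40 named genes. Values above 0.71 (Dixon's limit for 5 values) were found in 21 of 154 groups. Chance would give about 1 in 20 if the groups were independent and chosen blind, which they were not: lists share mice and genes, anti-PD1 library 5 was already known to lack tumor epithelium, and Mmrn1, Pparg, Tph1 and Serpinb9b were named from the fit without that library. The values below are therefore descriptions.

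In anti-PD1 library 5 the ratio was 0.968 for the gastric epithelium score (0.08 against 4.47 to 4.61 in anti-PD1 libraries 1 to 4), 0.842 for squamous epithelium, 0.851 for liver, 0.911 for proliferation (1.80 against 4.72 to 5.00), 0.768 for inflammatory cytokines and chemokines (-0.53 against 1.95 to 2.7), 0.840 for extracellular matrix and remodelling, 0.829 for IL6, JAK and STAT3 genes and 0.713 for regulatory T cells, all low. Among genes it was 0.784 for Pdcd1, 0.934 for Tox, 0.795 for Mmrn1, 0.891 for Pparg, 0.758 for Tph1 and 0.739 for Serpinb9b, all low, and 0.788 for Cd274, the one gene that was high (5.88 against 2.82 to 3.47 log2 CPM).

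In untreated library 2 the ratio was 0.745 for the gastric epithelium score (3.18 against 4.68 to 5.20), 0.837 for mast cells and 0.733 for Cd3e, all low. The score of exocrine pancreas was high in untreated library 4 (0.760). In untreated library 5 the regulatory T cell score (0.717) and the costimulation score (0.796) were low.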

How the results depend on the processing

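The count of genes with an adjusted p under 0.05 was 0 in both comparisons under every alternative run, with a smallest adjusted p of 0.511 over all of them with 10 libraries and 0.302 without anti-PD1 library 5, and the count of lists whose scores separated the groups was 0 with a prior count of 0.5 and with the median over the list. The number of genes past the volcano threshold, read as an unadjusted p, depended on the method. With 10 libraries it was 57 by edgeR, 195 by DESeq2, 195 by voom with library weights, 254 with no filter on low counts, 16 with at least 10 counts in every library, 107 with the muscle score as covariate and 105 in a fit of all 29 libraries. Without anti-PD1 library 5 it was 86 by edgeR, 193 by DESeq2, 182 by voom, 258 with no filter and 41 with at least 10 counts in every library. Omitting any 1 library gave 45 to 156 from the 10, with 86 without anti-PD1 library 3 or 5 and 156 without untreated library 2, and 72 to 143 from the 9, with 141 without untreated library 1 and 143 without untreated library 2. Why the count moved was not tested. Without the TMM factor, chosen after seeing the data, library 5 was 2.65, 2.01 and 2.19 times the highest other library for Cd274, Irgm2 and Igtp. With the replicate number as a block the counts were 34 and 55. Deviations of same-numbered libraries from their group means correlated at 0.16, -0.73, 0.46, 0.03 and -0.39 for numbers 1 to 5. These values show no common pairing by number but cannot exclude one, so no conclusion is drawn from the block. Of the values of single named genes under the alternatives, 53 of 811 changed sign with 10 libraries and 46 of 773 without library 5, none of them called before or after. Depth limits genes under 1 CPM, such as Ifng, most.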
